A study of Arabidopsis thaliana with 18 samples.

Results

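*UPOX* (AT2G21640) and *HSP23.5* (AT5G51440) are nuclear genes of *Arabidopsis thaliana* whose proteins work in mitochondria. They are 2 of the 13400 genes that could be named on these arrays. Both were chosen by measured values of these same arrays, namely their high level in untreated *pad2-1* plants and their lower level there under both treatments. Their levels, their differences and their likeness to each other are therefore given as a description, without a test. Each gene had 1 probe set, 263515_at for *UPOX* and 248434_at for *HSP23.5*.

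The mitochondrion holds a small genome of its own, and most of its proteins come from nuclear genes. When respiration is blocked or mitochondrial proteins are damaged, a signal to the nucleus, known as mitochondrial retrograde signalling, raises transcripts of a set of nuclear genes in plants. *UPOX* was named for its up-regulation by oxidative stress and is widely used as a marker of that response, while the biochemical role of its protein is not settled. *HSP23.5* encodes a small heat shock protein of the mitochondrial matrix, of the kind that holds unfolding proteins and keeps them from aggregating.

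Transcripts were measured in aerial parts of 18-day-old seedlings with Affymetrix ATH1 arrays, on which a set of short oligonucleotide probes reports each transcript. The 6 groups were *pad2-1* with MV, *pad2-1* under P-lim, *pad2-1* control, wild-type (WT, Col-0) with MV, WT under P-lim and WT control, with 3 arrays each. All plants grew on MS agar with sucrose, and the mutant has the Col-0 background of WT. The values are log2 intensities summarised by RMA from all arrays together, so a difference of 1 is a doubling, and levels of different probe sets cannot be set against each other.

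*pad2-1* carries a mutation in *GSH1*, the gene of glutamate-cysteine ligase, which catalyses the first step of glutathione synthesis, and its plants contain little glutathione. The transcript of *GSH1* is not reported here, so the genotype was not checked by it. MV is methyl viologen, which diverts electrons from photosystem I to oxygen. Its concentration reads 0.05 M in the sample labels, while the methods give the number in µM. Under P-lim, the medium held 20% of the usual phosphate. For the WT arrays with MV and under P-lim, the free-text description speaks of normal medium, so these arrays were assigned by their titles and treatment labels. None of the 8 listed phosphate limitation markers could be measured by name.

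Arrays of the same group were alike over all probe sets, with r between 0.9964 and 0.9984. *RCA*, the activase of Rubisco, was at 13.2 to 13.3 on all arrays (1 of 8 listed leaf markers measured). Of 8 listed root markers, 3 were measured. *EXPA7* was at 3.94 to 4.4 and *PER72* at 2.59 to 3.2, while *PYK10*, a beta-glucosidase that shoots also carry, was at 8.43 to 9.56. None of the 3 differed between *pad2-1* and WT under the control condition (limma adjusted p = 0.442 to 0.854). In pieces of a whole plant, fewer cells of a type and less RNA per cell cannot be told apart.

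The third array of *pad2-1* control stood apart from the other 2 of its group in both genes and in many others. It was the lowest of the 3 arrays for 519 of the 833 probe sets that were higher in *pad2-1* than in WT under the control condition, which is 62.3%, against 30.4% of all 22746 probe sets. For the values of *UPOX*, *HSP23.5* and the listed genes that rest on *pad2-1* control, the text therefore also gives results without it.

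*UPOX* was highest in untreated *pad2-1* plants. It read 6.262, 5.912 and 6.304 in *pad2-1* with MV, 6.498, 6.602 and 6.593 in *pad2-1* under P-lim, and 8.129, 8.328 and 7.128 in *pad2-1* control. In WT it read 5.349, 5.539 and 5.573 with MV, 5.852, 5.738 and 5.671 under P-lim, and 5.399, 5.421 and 5.556 in the control. All 9 *pad2-1* arrays lay above all 9 WT arrays, and how many of all probe sets show this separation was not counted. The means and SDs (n = 3 each) were 6.159 ± 0.215, 6.564 ± 0.0575 and 7.861 ± 0.643 for *pad2-1* with MV, under P-lim and in the control. They were 5.487 ± 0.121, 5.754 ± 0.0919 and 5.459 ± 0.0849 for WT in the same order of conditions.

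Ranked by mean, *UPOX* ran from *pad2-1* control through *pad2-1* P-lim, *pad2-1* MV, WT P-lim and WT MV down to WT control. Neighbours in this order did not overlap, with the exception of WT MV and WT control, whose ranges overlapped. The step between *pad2-1* MV and WT P-lim was narrow, since the lowest array of *pad2-1* MV was at 5.912 and the highest of WT P-lim at 5.852. Within its array, *UPOX* stood at the 68.4th to 84.7th percentile of all probe sets in *pad2-1* control and at the 43.8th to 45.5th in WT control.

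*HSP23.5* had the same highest group and a wider span. It read 5.125, 4.813 and 5.108 in *pad2-1* with MV, 5.601, 5.308 and 6.136 in *pad2-1* under P-lim, and 9.208, 9.206 and 8.315 in *pad2-1* control. In WT it read 3.678, 3.713 and 4.074 with MV, 4.19, 4.127 and 4.069 under P-lim, and 4.255, 4.229 and 4.075 in the control. All *pad2-1* arrays were again above all WT arrays, and the 3 *pad2-1* groups did not overlap each other. The share of all probe sets with such separations was not counted here either. The means were 5.015 ± 0.176, 5.682 ± 0.42 and 8.91 ± 0.515 for *pad2-1* with MV, under P-lim and in the control (SD, n = 3 each). In WT they were 3.822 ± 0.219, 4.129 ± 0.0609 and 4.186 ± 0.0975 for the same conditions.

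The order of *HSP23.5* by mean was *pad2-1* control, *pad2-1* P-lim, *pad2-1* MV, WT control, WT P-lim and WT MV. The 3 WT groups could not be ordered, because WT control overlapped WT P-lim and WT P-lim overlapped WT MV. *HSP23.5* was dim in WT, at the 22nd to 31st percentile of its array, where the lower quartile of all probe sets lay between 3.8 and 3.91. A fall in WT could therefore hardly be measured for this gene, whereas *UPOX* in WT was close to the middle of the array.

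**Figure D1:**
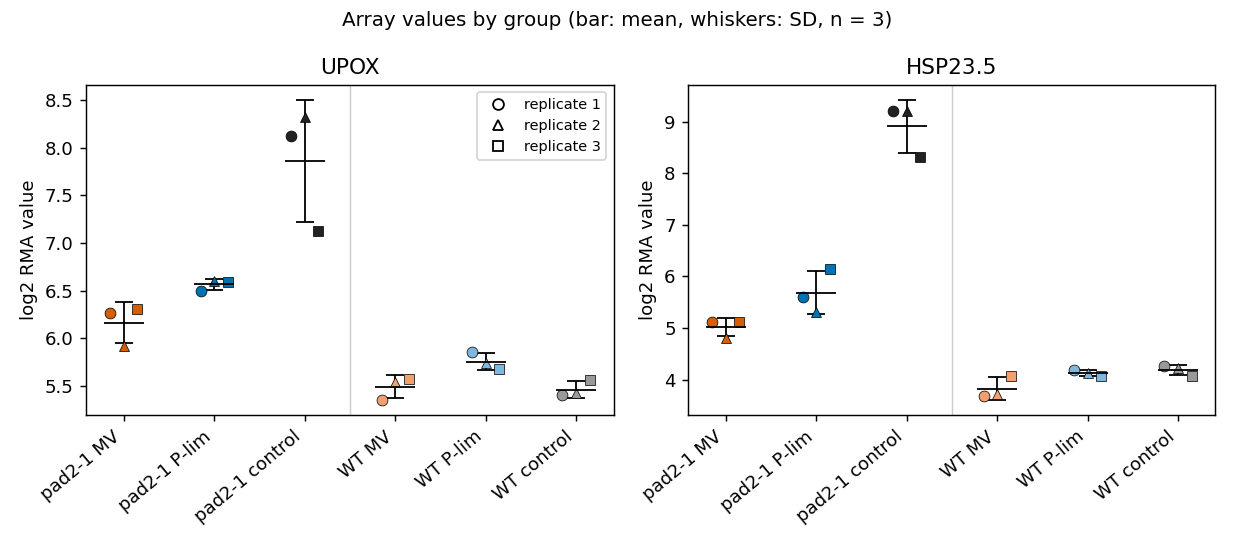
Log2 RMA values (vertical axes, a separate scale for each gene) of UPOX and HSP23.5 in the 6 groups (horizontal axis), with a symbol for each array, a bar for the mean and whiskers for the SD (n = 3). The pad2-1 control arrays are the highest of all 18 for both genes, and the third of them is the lowest of its group, at 7.128 for UPOX and 8.315 for HSP23.5.

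Between the genotypes, the difference was largest under the control condition. There *UPOX* was 5.29-fold higher in *pad2-1* than in WT (log2 difference 2.40, standard error 0.20 from the limma fit) and *HSP23.5* 26.4-fold higher (4.72, standard error 0.21). Among 22746 probe sets these were the 24th and 3rd largest rises. Over all probe sets in this comparison, 3.66% were called higher and 2.69% lower at an adjusted p under 0.05. Without the third *pad2-1* control array the log2 differences were 2.77 for *UPOX* and 5.02 for *HSP23.5*, and without either of the other 2 they were 2.17 to 2.27 and 4.57 to 4.58.

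Under treatment the genotypes stayed apart in both genes, by less. With MV, *UPOX* was 1.59-fold higher in *pad2-1* than in WT (log2 difference 0.67) and *HSP23.5* 2.29-fold higher (1.19), where 2.34% of all probe sets were called higher and 2.82% lower. Under P-lim the differences were 1.75-fold (log2 0.81) for *UPOX* and 2.93-fold (1.55) for *HSP23.5*, where 3.15% were called higher and 2.16% lower. Set against the log2 difference of the control condition, 28% of it was left with MV for *UPOX* and 25.3% for *HSP23.5*. Under P-lim 33.7% and 32.9% were left. For *HSP23.5*, whose WT values lay near the lower quartile, where RMA compresses differences, the folds and shares are approximate and the folds may be too small.

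Within *pad2-1*, both treatments went with lower values of both genes. With MV, *UPOX* was 3.25-fold lower than in the control (log2 difference -1.70) and *HSP23.5* 14.9-fold lower (-3.89). The change of *HSP23.5* was the largest of any probe set in this comparison. Background shares were 4.16% called higher and 3.85% lower. Under P-lim, *UPOX* was 2.46-fold lower than in the *pad2-1* control (-1.30) and *HSP23.5* 9.37-fold lower (-3.23), the 62nd and 8th largest falls, where 6.58% of probe sets were called higher and 5.23% lower. Without the third *pad2-1* control array the changes were -2.07 and -4.19 with MV and -1.66 and -3.53 under P-lim. Neither treatment brought *pad2-1* down to the WT level in either gene.

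WT plants showed little of this. With MV, *UPOX* differed from the WT control by 0.03 on the log2 scale, with overlapping arrays, and *HSP23.5* by -0.36, with its arrays apart by only 0.00075 (7.98% of probe sets called higher and 5.56% lower). Under P-lim, *UPOX* was 1.23-fold higher than in the WT control (log2 difference 0.29), with all 3 P-lim arrays above all 3 control arrays by at least 0.11, and *HSP23.5* differed by -0.06 with overlapping arrays (4.92% called higher and 4.28% lower). The standard errors of these differences were 0.20 for *UPOX* and 0.21 for *HSP23.5*.

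The response of *pad2-1* minus that of WT was -1.73 for *UPOX* and -3.53 for *HSP23.5* with MV (standard errors 0.28 and 0.29), the 24th and 4th lowest values of all probe sets. For P-lim it was -1.59 and -3.17, the 27th and 4th lowest. In these comparisons 0.589% of probe sets were called higher and 1.06% lower for MV, and 0.185% and 0.541% for P-lim. These comparisons share arrays, in particular those of *pad2-1* control, and are not independent of each other.

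**Figure D2:**
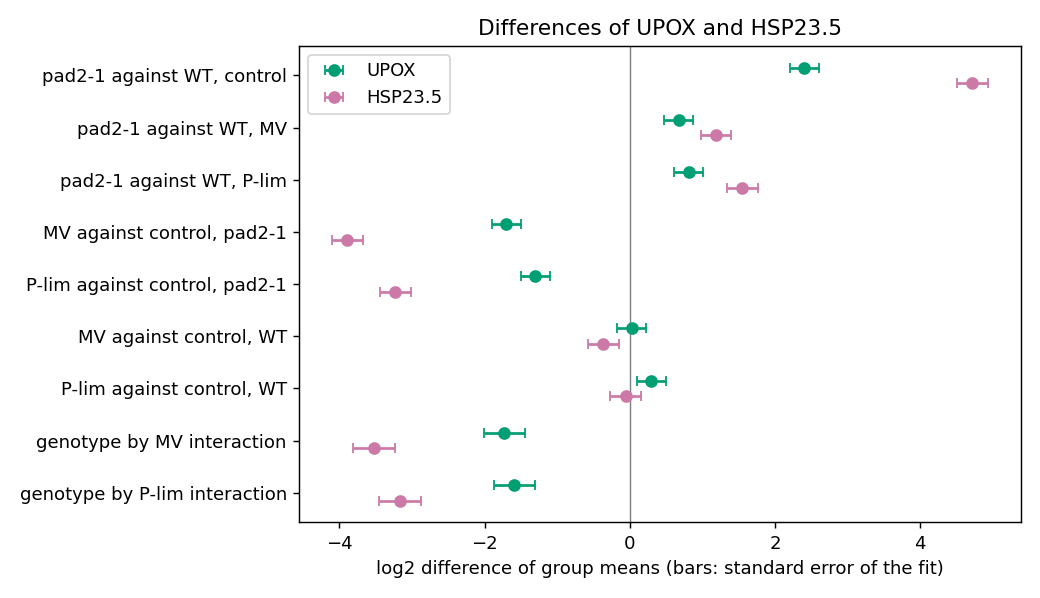
Log2 differences of group means (horizontal axis) for the 7 comparisons and 2 interactions (rows), with UPOX in green and HSP23.5 in pink and bars for the standard error of the fit. In the pad2-1 rows HSP23.5 lies farther from 0 than UPOX, as in pad2-1 against WT under the control condition with 4.72 against 2.40, while both lie near 0 for the treatments in WT.

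The arrays of a group spread more in these genes than in most. The residual SD around the group means was 0.287 for *UPOX* and 0.298 for *HSP23.5*, which is at the 99.1th and 99.2th percentile of all probe sets, whose median was 0.0914. For *UPOX* most of it came from *pad2-1* control, where the third array was 0.73 below the group mean and the others 0.27 and 0.47 above it. For *HSP23.5* the same array was 0.59 below the mean, and *pad2-1* P-lim also spread, with its second array 0.37 below and the third 0.45 above.

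*UPOX* and *HSP23.5* ran closely together over the 18 arrays. Pearson's r was 0.97 and Spearman's rho 0.88, and over the 6 group means they were 0.988 and 0.829. The values were a little lower without the highest arrays. Without the 3 *pad2-1* control arrays r was 0.928 (rho 0.796, n = 15), and without the 2 arrays farthest from the median of *UPOX*, both of *pad2-1* control, it was 0.919 (rho 0.832, n = 16). All these values share the arrays and their normalization.

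The 2 genes also ran together within *pad2-1*. Over its 9 arrays r was 0.956 and rho 0.917, and over the 6 treated ones r was 0.792 and rho 0.771. These values include the differences between the *pad2-1* groups, and both genes were chosen on the fall from the *pad2-1* control. Over the 9 WT arrays, where both genes moved little and *HSP23.5* was dim, r was 0.304 and rho 0.117. The WT control arrays even ran in opposite order, since the array highest in *UPOX*, with 5.556, was the lowest in *HSP23.5*, with 4.075.

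Deviations from the group means, which leave out the differences between groups, correlated with r = 0.744 and rho = 0.655 over the 18 arrays. The 2 genes deviated to the same side on 13 of them. Over the 9 *pad2-1* arrays the deviations gave r = 0.784 and rho = 0.633, and over the 9 WT arrays 0.354 and 0.283. The r of 0.744 rests on the third *pad2-1* control array, without which r was 0.352, and without the whole *pad2-1* control group it was 0.374. Beyond that group, *pad2-1* MV and WT P-lim had all 3 arrays to the same side in both genes, and WT control had none.

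**Figure D3:**
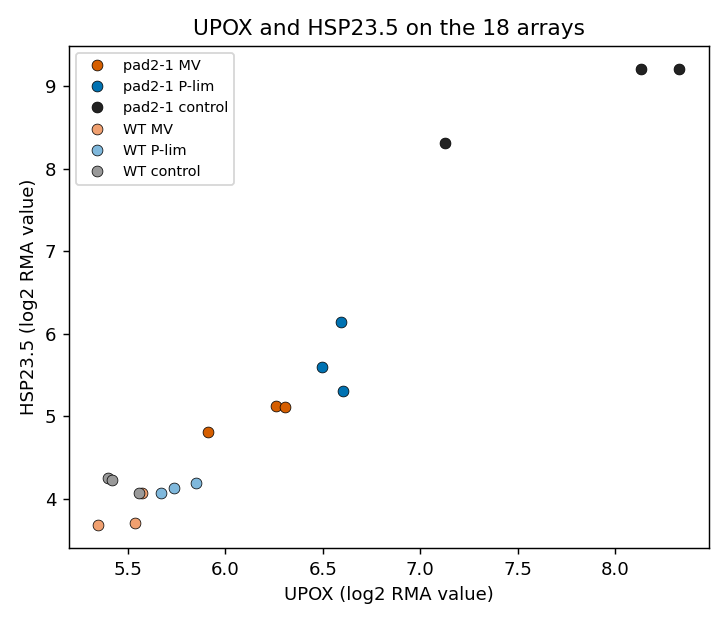
UPOX (horizontal axis) against HSP23.5 (vertical axis), both as log2 RMA values, with 1 point for each of the 18 arrays coloured by group. The pad2-1 control arrays lie far to the upper right, the treated pad2-1 arrays in between, and the WT arrays form a cloud without a clear slope (r = 0.304 over 9 arrays).

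Among the 22745 other probe sets, *HSP23.5* had the 6th highest r with *UPOX*, and *UPOX* the 7th highest with *HSP23.5*. By the deviations alone the ranks were 139 and 49. An r above 0.9 was reached by 54 probe sets with *UPOX* and 42 with *HSP23.5*, and an r below -0.9 by 3 and 4. Probe sets with 1 named gene were then ranked by r over the 18 arrays. Of the 8 nearest to each gene, 4 were shared, apart from the pair itself.

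AT5G43450, a gene of the 2-oxoglutarate-dependent dioxygenase family, was the nearest to *UPOX* (r = 0.972) and near to *HSP23.5* (0.965). Its log2 difference between *pad2-1* and WT under the control condition was 1.95, and in *pad2-1* it changed by -1.46 with MV and -1.14 under P-lim. AT2G41730 was the nearest to *HSP23.5* (0.979) and had r = 0.964 with *UPOX*. Its probe set is of a type that can also bind transcripts of related genes, so its values of 4.38, -3.75 and -2.86 for the same differences are uncertain as to the gene. The shared genes were completed by *LTI30*, a dehydrin (r = 0.939 with *UPOX* and 0.94 with *HSP23.5*), and AT1G19020 (0.934 and 0.954).

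Near *UPOX* alone were AT5G64250 (r = 0.955), AT1G30070 (0.941) and *HSP17.6B*, a cytosolic small heat shock protein (0.937). Near *HSP23.5* alone were AT2G47890 (0.955), which encodes a B-box zinc finger protein, *Fes1A*, a cytosolic partner of HSP70 (0.949), and *TIL*, a temperature-induced lipocalin (0.939). Some of them moved far less than the pair. AT5G64250 differed by 0.68 between *pad2-1* and WT under the control condition, *TIL* by 0.68 and AT2G47890 by 0.61. The share of the genotype difference left with MV also varied, at 10.2% for AT5G43450, 6.17% for AT2G41730, 23.3% for AT1G19020 and 58.9% for *LTI30*.

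At the other end, *BGLU33*, of the beta-glucosidase family, had the lowest r with both genes (-0.915 with *UPOX* and -0.906 with *HSP23.5*). Its changes were small, with a log2 difference of -0.38 between *pad2-1* and WT under the control condition and of 0.32 with MV in *pad2-1*. Next came AT2G22200 and AT3G09490 for *UPOX* (-0.854 and -0.851), and *BGLU40* and AT5G20700 for *HSP23.5* (-0.886 and -0.852).

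**Figure D4:**
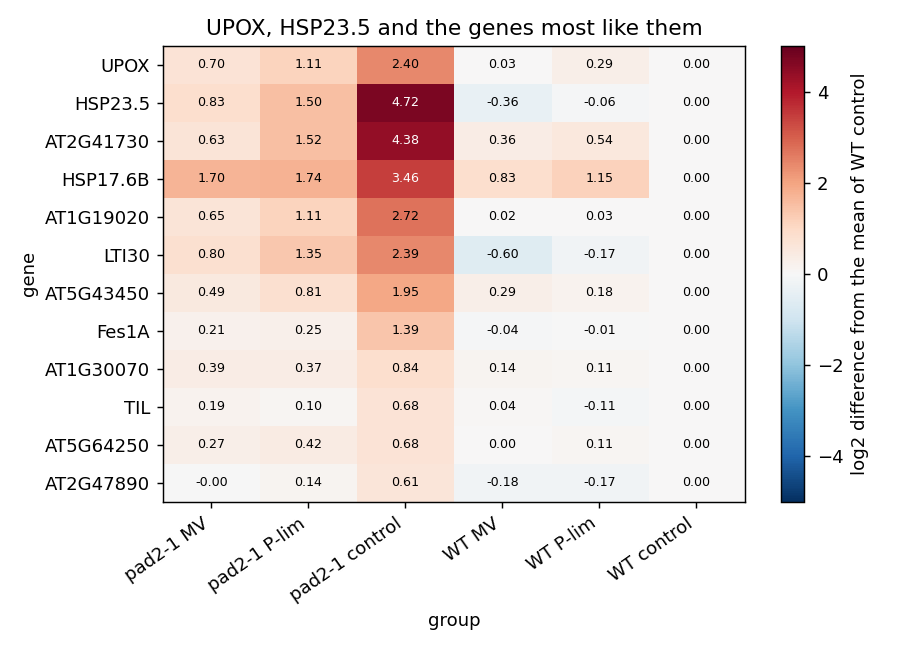
Mean log2 value of each group minus that of WT control (colour and printed value) for UPOX, HSP23.5 and the named genes with the highest r to them (rows) in the 6 groups (columns). Every row is highest in pad2-1 control, with values there between 0.61 for AT2G47890 and 4.72 for HSP23.5.

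On 211 probe sets (0.928%) all 3 *pad2-1* control arrays lay above the other 15 arrays, as they did for *UPOX* and *HSP23.5*. Of these, 18 were also higher than in WT control by a log2 difference of 2 or more and higher than in both treated *pad2-1* groups by 1 or more. A single gene could be named for 8 of the 18. In addition to the pair these were AT2G41730, *HSP17.6B*, *HSP17.6C*, *LTI30*, AT1G19020 and AT1G71000, a gene of a DnaJ-domain protein (log2 difference 2.72 between *pad2-1* and WT under the control condition). On all 18 probe sets the third *pad2-1* control array was the lowest of its group, as it was on 141 of the 211.

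Other genes of the mitochondrial stress response were read from a list of 36 further members, of which 9 could be measured by name. The alternative oxidase genes, the best-known targets of this response, are not among the 9. Under the control condition 3 of 9 were higher in *pad2-1* than in WT and none lower, against 3.66% and 2.69% of all probe sets. The median log2 difference of the list was 0.17, against 0.00 over all probe sets. These were *NDB2*, an external NAD(P)H dehydrogenase of the inner mitochondrial membrane, *HRE2*, a transcription factor of the hypoxia response, and *DTX3*, a transporter of the MATE family.

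*NDB2* averaged 6.659 ± 0.112 in *pad2-1* control and 5.528 ± 0.0303 in WT control (SD, n = 3 each), a log2 difference of 1.13 (limma adjusted p = 9.74e-08). Like *UPOX* it was above WT in *pad2-1* also with MV (0.41, limma adjusted p = 0.0082) and under P-lim (0.54, limma adjusted p = 0.000854), in 3 of 3 arrays each time. With MV it fell in *pad2-1* by 0.41 (limma adjusted p = 0.00496). Under P-lim it departed from *UPOX*, since its *pad2-1* mean was 6.729 under P-lim and 6.659 in the control, while in WT it rose by 0.66 (limma adjusted p = 4.52e-05).

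*HRE2* read 5.417, 5.322 and 4.386 in *pad2-1* control and 3.529, 3.602 and 3.528 in WT control, a log2 difference of 1.49 (limma adjusted p = 1.77e-05). It fell in *pad2-1*, to means of 3.686 with MV and 3.776 under P-lim (log2 differences -1.35 and -1.27, limma adjusted p = 5.9e-05 and 7.47e-05). Its r was 0.909 with *UPOX* and 0.912 with *HSP23.5*. In the treated plants its *pad2-1* and WT arrays overlapped. Outside *pad2-1* control its group means, 3.553 to 3.776, lay below the lower quartile of the arrays, so its differences from *pad2-1* control are lower bounds.

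*DTX3* read 6.091, 5.911 and 4.694 in *pad2-1* control and 3.986, 4.155 and 3.884 in WT control, a log2 difference of 1.56 (limma adjusted p = 0.000228). It fell by 1.03 in *pad2-1* with MV (limma adjusted p = 0.00849, and 0.0583 without the first *pad2-1* control array). The third *pad2-1* control array was the lowest of its group in *NDB2*, *HRE2* and *DTX3*, as in *UPOX* and *HSP23.5*. With MV in *pad2-1* these 3 of the 9 were lower and none higher (5 lower at an unadjusted p under 0.05). The shares over all probe sets were 3.85% lower and 4.16% higher. Under P-lim in *pad2-1* 1 was lower, *HRE2*, and 1 higher (5.23% lower and 6.58% higher over all probe sets). The higher one was *AT12CYS-2*, a small cysteine-rich mitochondrial protein, with a log2 difference of 0.93 (limma adjusted p = 0.000161).

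Without the third *pad2-1* control array, the log2 differences between *pad2-1* and WT control were 1.19 for *NDB2*, 1.82 for *HRE2* and 1.99 for *DTX3*, and the counts in that comparison and for MV in *pad2-1* were again 3 higher and 3 lower. Under P-lim in *pad2-1*, 2 members were then lower, *HRE2* and *DTX3*. *DTX3* differed there by -0.74 (limma adjusted p = 0.000338), against -0.30 on all arrays (limma adjusted p = 0.477). In WT under P-lim *DTX3* was then called as well, higher by 0.39 (limma adjusted p = 0.0191, against 0.357 on all arrays).

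On all arrays the only called member in WT was *NDB2*, higher under both treatments, and none of the 9 was lower (7.98% of probe sets higher and 5.56% lower with MV, 4.92% and 4.28% under P-lim). The MV call (0.31, limma adjusted p = 0.0232) was lost without the second WT MV array (0.11) or any array of WT control (0.056 to 0.0798). Between *pad2-1* and WT under treatment, *NDB2* was the 1 member called with MV, and *NDB2*, *AT12CYS-2* (0.86, limma adjusted p = 0.000844) and *DTX3* (0.86, limma adjusted p = 0.0359) were the 3 called under P-lim, all higher. The shares over all probe sets there were 2.34% higher and 2.82% lower with MV, and 3.15% and 2.16% under P-lim. The *DTX3* call was lost without any 1 of the second and the third *pad2-1* P-lim arrays or the 3 WT P-lim arrays (0.09 to 0.133). The other members, *NDB1*, *NDB3*, *NDB4*, *NDC1* and *AT12CYS-1*, were called in none of the 9 comparisons on all arrays.

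Of 22 listed chaperones and proteases of mitochondria other than *HSP23.5*, 3 were measured. *HSP26.5*, another small heat shock protein, read 4.523, 3.566 and 2.968 in *pad2-1* control and 2.815, 2.716 and 2.883 in WT control, a log2 difference of 0.88 (limma adjusted p = 0.0303). It was dim, below the lower quartile of all probe sets on every array but the first of *pad2-1* control. The call was lost without any 1 of the first and second *pad2-1* control arrays or the 3 WT control arrays (0.0607 to 0.11), while without the third *pad2-1* control array the difference was 1.24 (limma adjusted p = 0.000282). *HSP26.5* was also called lower in *pad2-1* with MV (-0.79, limma adjusted p = 0.0471) and under P-lim (-0.82, limma adjusted p = 0.0297). The MV call was lost without any 1 array other than the third of *pad2-1* control (0.0526 to 0.18). The P-lim call was lost without any 1 of the 3 *pad2-1* P-lim arrays or the first or second *pad2-1* control array (0.05 to 0.0975). The chaperonin *HSP60-2* and the protease subunit *CLPP2* were called in no comparison. In the treated plants no member of the 3 was called between the genotypes (0 at an unadjusted p under 0.05 with MV and 1 under P-lim), and in WT none was called for either treatment (0 at an unadjusted p under 0.05 for both). Between the genotypes, 3.66% of all probe sets were called higher and 2.69% lower in the control, 2.34% and 2.82% with MV, and 3.15% and 2.16% under P-lim. For the treatments in *pad2-1* the shares were 4.16% higher and 3.85% lower with MV, and 6.58% and 5.23% under P-lim. In WT they were 7.98% and 5.56% with MV, and 4.92% and 4.28% under P-lim.

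Most of the measured heat shock genes outside mitochondria were also high in untreated *pad2-1*. Of 29 listed genes 7 were measured, and under the control condition 6 were higher in *pad2-1* than in WT and none lower (3.66% and 2.69% of all probe sets), with a median log2 difference of 1.31 over the 7. *HSP17.6B* read 8.6, 8.258 and 7.405 in *pad2-1* control and 4.62, 4.743 and 4.513 in WT control (log2 difference 3.46, limma adjusted p = 1.39e-08). *HSP17.6C*, also a cytosolic small heat shock protein, differed by 2.36 (limma adjusted p = 3.72e-05), the co-chaperone *HOP3* by 1.59 (limma adjusted p = 3.48e-05) and *ROF2*, a peptidyl-prolyl isomerase, by 1.31 (limma adjusted p = 2.69e-06). *HSP22*, of the endoplasmic reticulum, and *HSA32* differed by 0.58 and 0.39, and *HSP15.7* missed the threshold, with means of 5.443 in *pad2-1* control and 5.123 in WT control (limma adjusted p = 0.154). Without the third *pad2-1* control array it was called too (log2 difference 0.47, limma adjusted p = 0.0142), so that 7 of 7 were higher, and *HSP17.6B* differed by 3.80, *HSP17.6C* by 2.88, *HOP3* by 1.89 and *ROF2* by 1.52. The *HSA32* call was lost without the first *pad2-1* control array or the first or the third WT control array (limma adjusted p = 0.0553 to 0.0888).

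In *pad2-1* 5 of these 7 fell with MV and 5 under P-lim, and none rose, where 3.85% of all probe sets fell and 4.16% rose with MV, and 5.23% and 6.58% under P-lim. The counts were the same without the third *pad2-1* control array. *HSP17.6C* changed by -1.85 and -1.98, *HSP17.6B* by -1.76 and -1.72, *ROF2* by -1.38 and -1.19, and *HOP3* by -1.20 and -1.22 with MV and under P-lim. *HSP17.6C* and *HOP3* were at means of 3.675 to 3.802 in treated *pad2-1*, at or below the lower quartile of the arrays, so their falls are lower bounds. In WT the sole call was *HSP17.6B*, which rose by 0.83 with MV (limma adjusted p = 0.0208) and by 1.15 under P-lim (limma adjusted p = 0.00274), whereas *HSP23.5* did not rise there. The MV call was lost without the first or second WT MV array or the first or the third WT control array (0.0526 to 0.0764). Between the genotypes, 1 of 7 was called with MV, *HSP17.6B* (0.87, limma adjusted p = 0.0315), and 0 under P-lim (1 if p is left unadjusted, and *HSP17.6B* with a limma adjusted p of 0.0401 without the third *pad2-1* control array). Of all probe sets, 2.34% were higher and 2.82% lower between the genotypes with MV, and 3.15% and 2.16% under P-lim. The *HSP17.6B* call with MV was lost without any 1 of the first and second *pad2-1* MV arrays or the 3 WT MV arrays (0.0579 to 0.131).

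The oxidative stress list had 6 of 21 genes measured, and 2 were higher in *pad2-1* than in WT under the control condition and none lower (3.66% and 2.69% of all probe sets). AT1G19020 read 7.593, 7.286 and 6.646 in *pad2-1* control and 4.467, 4.429 and 4.465 in WT control (log2 difference 2.72, limma adjusted p = 1.28e-05), and it fell in *pad2-1* with MV and under P-lim (log2 differences -2.07 and -1.61, limma adjusted p = 0.000254 and 0.00177). Without the third *pad2-1* control array the difference between *pad2-1* and WT control was 2.99. The zinc finger gene *STZ* took another course with MV. It was 1.05 higher in *pad2-1* than in WT under the control condition (limma adjusted p = 0.00958, and 0.0619 without the second WT control array) and 2.84 higher with MV (5.83e-07). In WT it fell with MV (log2 difference -1.72, limma adjusted p = 6.03e-05), while *pad2-1* averaged 7.116 with MV and 7.045 in the control. Under P-lim *STZ* fell in *pad2-1* as well as in WT (log2 differences -1.23 and -1.22, limma adjusted p = 0.00177 and 0.00222). Under P-lim AT1G19020 and *STZ* were called higher in *pad2-1* than in WT, by 1.09 and 1.04 (limma adjusted p = 0.0486 and 0.0131). The *STZ* call was lost without the third *pad2-1* P-lim or the second WT P-lim array (0.0685 to 0.0713). The AT1G19020 call was lost without any 1 of 15 arrays, all but the first *pad2-1* P-lim and the first and the third *pad2-1* control arrays (0.0505 to 0.213). *PRXIIF*, the mitochondrial peroxiredoxin, and *TRXO1*, a mitochondrial thioredoxin, were not called between the genotypes in any condition.

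Several genes of the respiratory chain were higher under P-lim in both genotypes, where *UPOX* and *HSP23.5* were lower in *pad2-1*. Of 27 listed, 6 were measured, and 4 of them rose under P-lim both in *pad2-1* and in WT, against 6.58% of all probe sets in *pad2-1* and 4.92% in WT. These were *SDH2-1* and *SDH2-2*, iron-sulfur subunits of complex II, and the cytochrome c genes *CYTC-1* and *CYTC-2*. *SDH2-2* rose by 0.56 in *pad2-1* and by 0.47 in WT (limma adjusted p = 0.000441 and 0.00229). In *pad2-1* the *CYTC-1* call was lost without the second or the third P-lim array or the first or second control array, and the *CYTC-2* call without the third P-lim or the third control array (limma adjusted p = 0.0527 to 0.137), which leaves 3 of 6 without the third *pad2-1* control array. Under the control condition both cytochrome c genes were higher in *pad2-1* than in WT, *CYTC-2* by 0.88 (limma adjusted p = 6.58e-05, and 1.04 without the third *pad2-1* control array) and *CYTC-1* by 0.26 (limma adjusted p = 0.00288). They were the 2 of 6 called, against 3.66% of all probe sets higher and 2.69% lower. Under P-lim the same 2 were called higher, by 0.49 and 0.19 (limma adjusted p = 0.0181 and 0.0286), against 3.15% higher and 2.16% lower. Both P-lim calls were lost without the second or the third *pad2-1* P-lim array (0.0534 to 0.134), among others. *CYTC-2* was also the 1 member that fell in *pad2-1* with MV, by 0.65 (limma adjusted p = 0.00135), where 3.85% of all probe sets were lower and 4.16% higher. Its deviations ran with those of *UPOX* (r = 0.83 over 18 arrays). The r of *CYTC-2* itself was 0.595 with *UPOX* and 0.476 with *HSP23.5*. With MV no member was called between the genotypes (0 higher and 1 lower at an unadjusted p under 0.05) or in WT (2 higher at an unadjusted p under 0.05). The shares over all probe sets with MV were 2.34% higher and 2.82% lower between the genotypes, and 7.98% and 5.56% in WT.

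**Figure D5:**
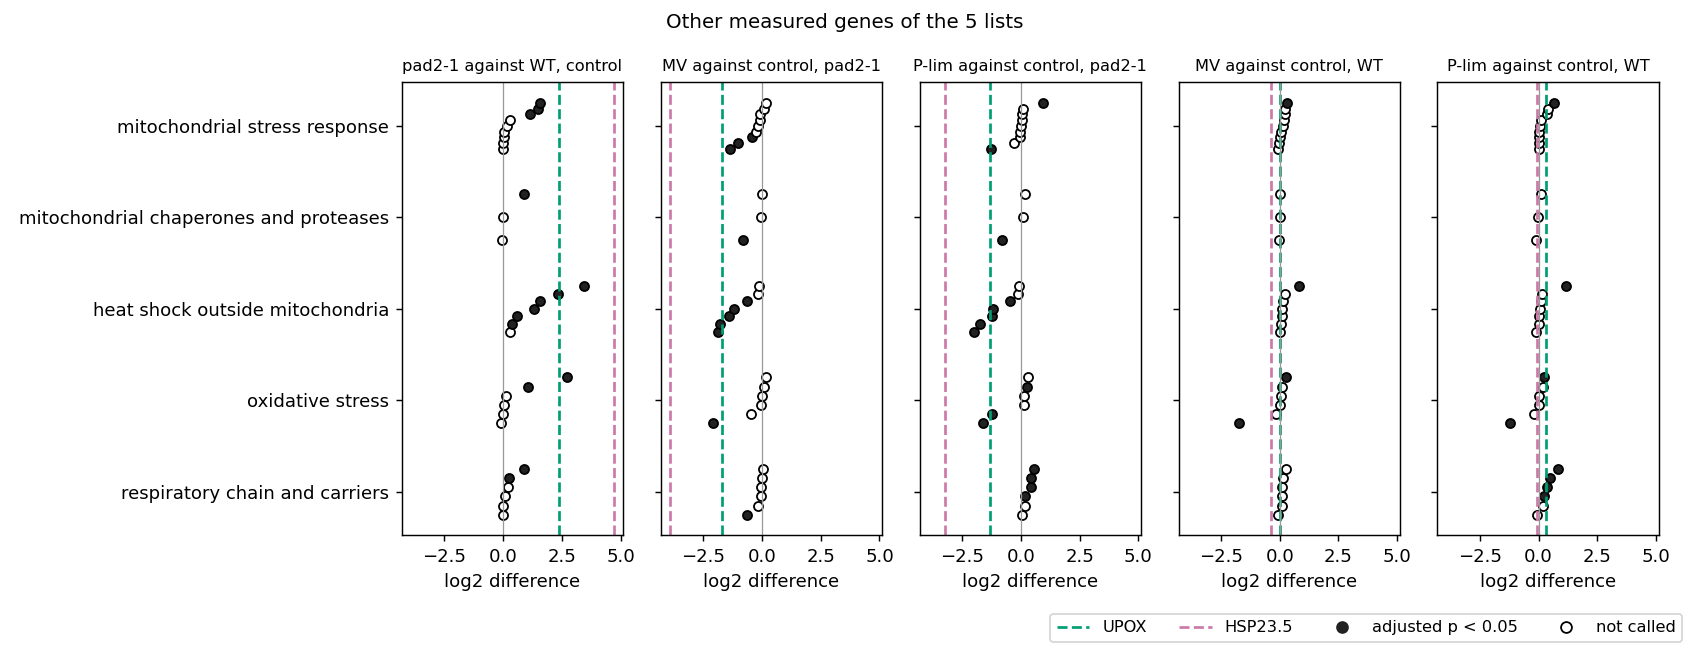
Log2 differences (horizontal axes) of the measured genes of the 5 lists (rows) in 5 comparisons (panels), filled where the limma adjusted p was under 0.05, with dashed lines for UPOX in green and HSP23.5 in pink. In pad2-1 against WT under the control condition 14 of 31 genes are filled and these 14 lie above 0, 6 of them heat shock genes outside mitochondria. Over all probe sets 3.66% were called higher and 2.69% lower there. No gene lies beyond HSP23.5 in the 3 pad2-1 panels.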

How the data were processed

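The authors processed all 18 ATH1 arrays jointly with RMA, which corrects the background, quantile-normalizes and summarizes each probe set, and deposited 1 log2 expression value per probe set and array, which was used without further scaling. RMA makes the distributions of the arrays alike and compresses dim signal. The files hold no read depth, and 3 arrays a group limit the precision. Per the methods, each hybridization used 1 biological replicate. After 64 control probe sets were left out, 22746 were tested.

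A probe table named 13436 probe sets by 1 gene and 503 by several, and 115 names came from the manufacturer's gene column in the part of the supplementary table that was given. The brightest probe set stood for a gene. No sequence or coordinate was used.

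limma 3.58.1 (R 4.3.3) fitted 6 group means to the 18 arrays, with Benjamini-Hochberg adjustment over all probe sets. A call is an adjusted p under 0.05. *UPOX* and *HSP23.5* were left out of the lists and got no p value. The steps were tested on simulated data. The members and lists were chosen with earlier results of these data known. Named genes are the 8 highest and 3 lowest by r with each member, and from each list up to 4 called members per comparison with all chaperones. AT1G71000 and further list members were added after their values were seen. The alternatives were a median shift, the dimmer 50% of probe sets left out, trend and robust estimation, only the groups compared, the replicate number as a block, a minimum log2 difference of 1, and each array left out in turn.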

Additional observations from a re-analysis of the deposited data

Results flagged for a closer look

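The response to MV differed between *pad2-1* and WT for 10 of the 31 measured list genes by the interaction test of limma. Over all probe sets, 0.589% were called higher and 1.06% lower in this test. The response of *pad2-1* minus that of WT was negative for *NDB2* (-0.72), *HRE2* (-1.48), *HSP17.6B* (-2.59), *HSP17.6C* (-2.09), *HSP22* (-0.72), *ROF2* (-1.40), *HOP3* (-1.34), AT1G19020 (-2.09) and *CYTC-2* (-0.92), and positive for *STZ* (1.79), with limma adjusted p between 0.000352 and 0.0169. The response to P-lim differed for *NDB2* (-0.59), *HRE2* (-1.36), *HSP17.6B* (-2.86), *HSP17.6C* (-2.03) and *ROF2* (-1.07), with limma adjusted p between 0.000155 and 0.0295. For P-lim, 0.185% of all probe sets were called higher and 0.541% lower. The AT1G19020 difference under MV was not called without the second *pad2-1* MV, second *pad2-1* control or first WT MV array (0.0507 to 0.0518) or with trend and robust estimation (0.0684), which also took the calls under MV of *HOP3* (0.0535) and *HSP17.6C* (0.0529). The *NDB2* difference under P-lim was lost without any of 9 arrays (0.0563 to 0.0841) and that of *HSP17.6C* without any of 8 (0.0541 to 0.0838). Without the third *pad2-1* control array, further differences were called, for *DTX3* under MV (-1.67, limma adjusted p = 3.49e-06) and P-lim (-1.13, 0.00043), *HSP26.5* under MV (-1.17, 0.0167) and P-lim (-1.16, 0.0274), and *HOP3* (-1.52, 0.000666) and AT1G19020 (-1.90, 0.0434) under P-lim.

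Under P-lim the *UPOX* arrays lay on opposite sides of their controls in *pad2-1* and WT, with only a small difference in WT. All 3 *pad2-1* P-lim arrays were below all 3 *pad2-1* control arrays, and all 3 WT P-lim arrays were above all 3 WT control arrays, so the response of *pad2-1* minus that of WT was -1.59. In WT the log2 difference was 0.29 with a standard error of 0.20, and the arrays were apart by 0.11. It was the 915th largest rise among 22746 probe sets. How many of all probe sets separate in this way was not counted. The difference between the responses was not tested, since *UPOX* was chosen on these values.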

How the results depend on the processing

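The differences of *UPOX* and *HSP23.5* in *pad2-1* kept their direction with the median shift, the replicate block and each array left out in turn. They were not computed under the other alternatives. Leaving out 1 array in turn gave 2.17 to 2.77 for *UPOX* in *pad2-1* against WT under the control condition, -2.07 to -1.47 for MV and -1.66 to -1.06 for P-lim in *pad2-1*, and -2.10 to -1.50 and -1.96 to -1.36 for the interactions with MV and P-lim. The extremes farthest from 0 came without the third *pad2-1* control array. The r of the deviations ranged from 0.352 to 0.861, and it was 0.374 without the *pad2-1* control group. Without the 2 arrays farthest from the median of *UPOX* it is the same by construction. Only the third *pad2-1* control array is then left in its group, and it does not deviate from its own mean. *HSP23.5* and most heat shock and oxidative stress genes were dim and dropped out with the dimmer 50% of probe sets, so signal over background limits them, and list counts of 0 to 7 turn on single genes.

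Same-numbered arrays correlated between -0.18 and 0.18 in their deviations, and in 0 of 15 pairs of groups were all 3 correlations over 0.1, so the numbers were not taken as pairs. With the replicate block, 12631 calls were made over all comparisons other than the interactions, against 13507 without it. In these comparisons the standard errors of *UPOX* and *HSP23.5* with the block were 0.21 and 0.22. The block left 1 oxidative stress gene called in *pad2-1* against WT under P-lim and 1 under P-lim in WT, and changed no other list count by over 1.5 times.

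Counts of called list genes moved by over 1.5 times, or to or from 0, as follows. With each array shifted to the same median, the count was 0 (1 without the shift) for mitochondrial stress genes under MV in WT, and 1 (against 2) for oxidative stress and for respiratory chain genes in *pad2-1* against WT under P-lim. With the dimmer 50% of probe sets left out, 4 of the 9 mitochondrial stress genes were left. Their counts were 1 in *pad2-1* against WT in the control and under P-lim and in both interactions, 0 under P-lim in *pad2-1* and 2 under MV in WT. Of the 7 heat shock genes only 1 was left, and it was called in *pad2-1* against WT control, for both treatments in *pad2-1* and in both interactions. Of the 6 oxidative stress genes 2 were left, with counts of 0 for the genotypes in each condition, for MV in *pad2-1* and for its interaction, and of 1 for P-lim in both genotypes and for MV in WT. *HSP26.5* dropped out, which left 0 mitochondrial chaperones where it had been called, and 1 was called in *pad2-1* against WT under P-lim.

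With trend and robust estimation, and with only the groups compared in the fit, the 3 calls of *HSP26.5* were lost (0 each). Trend and robust estimation also gave 1 chaperone in *pad2-1* against WT under P-lim, 2 mitochondrial stress genes under MV in WT, 0 heat shock genes for MV in WT and for the genotypes under MV, 3 for the MV interaction, and 1 oxidative stress gene for the genotypes under P-lim and for the MV interaction. With only the groups compared, the counts were 2 mitochondrial stress genes for each treatment in WT and 1 for the P-lim interaction, 1 heat shock gene for the genotypes under P-lim, 2 and 1 oxidative stress genes for the genotypes under MV and P-lim, and 1, 2 and 1 respiratory chain genes for the genotypes under P-lim, for P-lim in *pad2-1* and for MV in WT. With a minimum log2 difference of 1, 0 respiratory chain genes and 0 chaperones were called in any comparison, 0 mitochondrial stress genes for the genotypes under treatment and for both treatments in WT and 1 for P-lim in *pad2-1* and for both interactions, 0 heat shock genes for the genotypes under MV and for MV in WT, and 1 oxidative stress gene for each treatment in WT.

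Leaving out 1 array in turn, mitochondrial stress counts ranged from 0 to 2 for MV in WT, 1 to 2 for P-lim in WT and 1 to 3 for the P-lim interaction. Chaperone counts ranged from 0 to 1 in *pad2-1* against WT in the control and under P-lim, for both treatments in *pad2-1* and in both interactions. Heat shock counts ranged from 0 to 1 for the genotypes under MV and P-lim and for MV in WT, and from 2 to 5 for the P-lim interaction. Oxidative stress counts ranged from 1 to 2 for the genotypes in the control and under MV, for MV in *pad2-1*, for P-lim in WT and for the MV interaction, from 0 to 3 for the genotypes under P-lim and from 0 to 1 for the P-lim interaction. Respiratory chain counts ranged from 0 to 3 for the genotypes under P-lim and from 2 to 4 for P-lim in *pad2-1*. The causes of these changes were not tested. These counts took higher and lower calls together, so a change of direction was not examined. The *UPOX* difference for MV in WT, 0.03, changed sign with the median shift and without the third WT MV or the first WT control array, with -0.0145 as its lowest value.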
